A study of Caenorhabditis elegans with 12 samples.

Results

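Transcript levels were compared between mir-124 mutant and wild-type GFP+ cells of Caenorhabditis elegans, on 3 Affymetrix arrays of each strain, 6 of the 12 arrays of the series. The arrays were chosen by their titles, which give strain, sorted fraction and replicate. Both strains carried a GFP reporter under the mir-124 promoter, injected at 5 ng/ul together with a lin-15 rescue plasmid into lin-15(n765) animals, integrated by X-ray irradiation and outcrossed into the N2 background. Mutant animals in addition carried a mir-124 mutation, whose allele the labels do not name. Cells from dissociated embryos of animals grown at 20 °C spent 24 hours in culture, and 500000 per sample were collected by fluorescence, so each sample pools cells of many embryos. The groups were mutant GFP+, wild-type GFP+, mutant GFP- and wild-type GFP- cells, with 3 arrays each, and the GFP- cells served for comparison. RNA was amplified before labelling. The study design describes the triplicates as biological, but no label says whether each had its own culture, so a p-value here reflects only how these samples spread.

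MicroRNAs are short RNAs that guide Argonaute proteins to matching sites in messenger RNAs and lower the level or translation of those messengers. miR-124 is conserved from worms to mammals and is known as a microRNA of the nervous system. In C. elegans its promoter is active in many ciliated sensory neurons, the cells whose endings carry the receptors and channels that read odours, tastes, temperature and touch.

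The markers bore out the label of the sorted cells. The mean log2 signal of 14 ciliated sensory neuron markers was 7.93 to 8.31 on the mutant GFP+ arrays and 7.76 to 8.60 on the wild-type GFP+ arrays, against 4.82 to 5.07 on 5 of the 6 GFP- arrays. The remaining array, labelled wild-type GFP- replicate 3, read 8.50 and had the profile of GFP+ cells, so it was left out of the fit, which rested on 11 arrays. Wild-type GFP+ replicate 3 also stood apart. Its control RNAs and C. elegans control transcripts had 3′ probe sets 3.08 and 2.13 log2 units brighter than middle ones, against 1.66 to 1.94 and 1.14 to 1.40 on the other 5 GFP+ arrays. It correlated across probe sets at r = 0.941 to 0.944 with the other wild-type GFP+ arrays, which correlated with each other at 0.990, and at 0.946 to 0.955 with mutant GFP+ arrays. Its highest correlation, 0.977, was with that left-out library. Differences in GFP+ cells are therefore given with it (11 arrays) and without it (10 arrays). With amplified RNA from sorted pools, fewer cells of a type and less RNA per cell cannot be told apart.

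**Figure D1:**
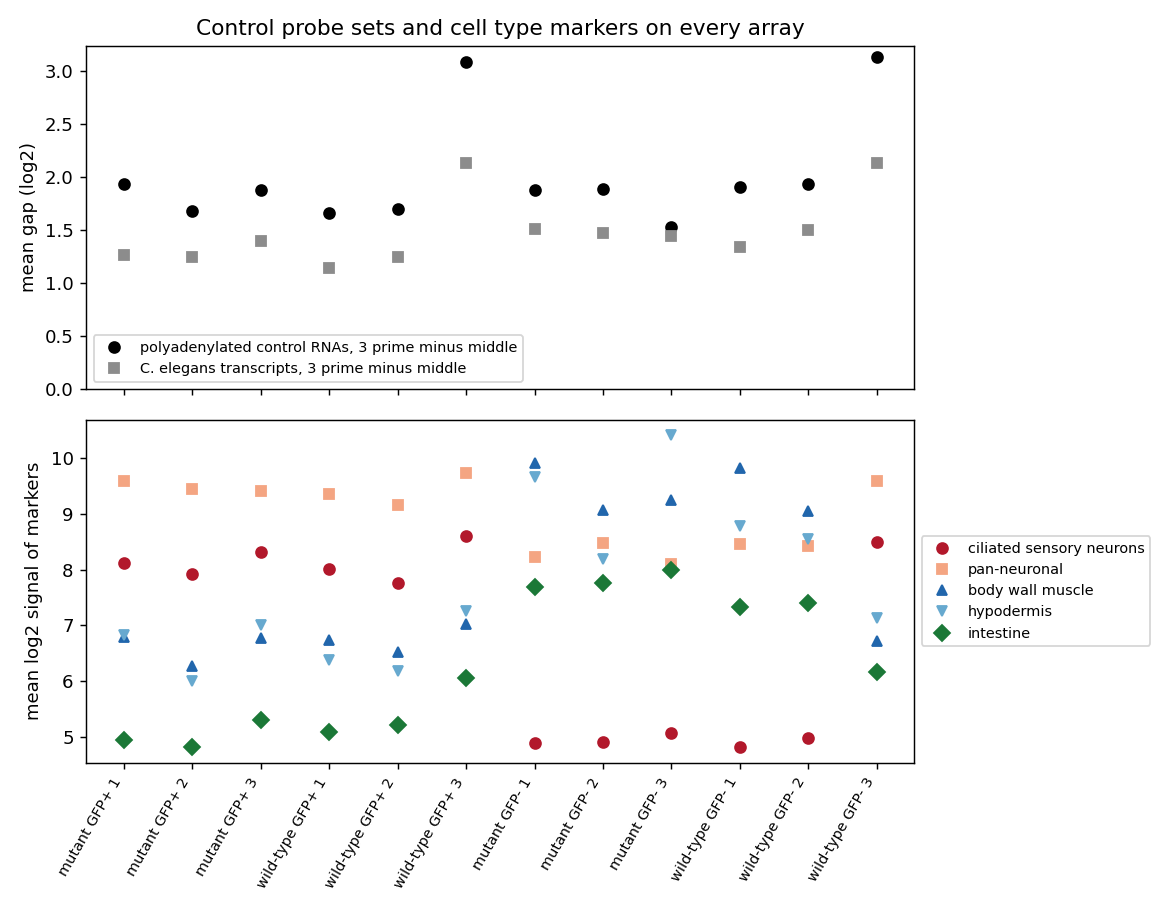
Control probe sets and cell type markers on each of the 12 arrays. The upper panel plots the mean gap (log2) of 3′ over middle probe sets, for added polyadenylated RNAs and for C. elegans transcripts, and the lower panel the mean log2 signal of 5 marker lists. Both wild-type replicate 3 arrays have wider gaps than the other 10 on both measures, and the array at the far right has the ciliated and pan-neuronal marker levels of the GFP+ arrays.

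Few transcripts separated the strains beyond the replicate error. With 11 arrays 4 of 22548 probe sets passed limma at an adjusted p of 0.05, which is 0.0177% of those tested, 3 higher (0.0133%) and 1 lower (0.00443%) in mutant GFP+ cells. The higher ones were trpa-1, the gene within which mir-124 lies, rgs-5 and the pseudogene F39E9.7, and the lower one was ergo-1. Their differences were 4.46-fold to 5.91-fold, and no called difference was under 2.16 log2 units. At an unadjusted p of 0.05 there were 423 probe sets (1.88%), where 1127 would be expected if no transcript differed. Without wild-type GFP+ replicate 3, 5 probe sets passed (0.0222%), 3 higher (0.0133%) and 2 lower (0.00887%), and 687 (3.05%) had an unadjusted p under 0.05. The 5 were trpa-1, rgs-5, ergo-1, tag-296 and a probe set annotated to several genes, while F39E9.7 did not pass (limma adjusted p = 0.0968, or 0.00268 with the replicate number as a block). With all 12 arrays rgs-5, F39E9.7 and ergo-1 passed (0.0133%).

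These calls rested on few arrays. The 11-array count of 4 became 2 without wild-type GFP+ replicate 1, 3 without mutant GFP- replicate 1, 5 without wild-type GFP+ replicate 3 and 0 without any one of the other 8 arrays. From 10 arrays, it was 1 without mutant GFP+ replicate 1, 3 without mutant GFP+ replicate 3 and 0 without any one of the other 3 GFP+ arrays. In the 6 GFP+ arrays alone 0 probe sets passed limma. The differences themselves moved little: over 16 fits that each left out an array, they stayed between 1.77 and 2.35 for trpa-1, 2.05 and 2.82 for rgs-5, 2.00 and 2.43 for F39E9.7, and -2.72 and -1.96 for ergo-1. The median standard error of a probe set was 0.195 log2 units with 11 arrays and 0.183 with 10, and the number of arrays limits what could be called.

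No tested probe set is annotated to mir-124, and so the arrays hold no reading of the lost microRNA itself. Its host gene trpa-1 encodes a channel of the TRPA family, known in C. elegans for roles in mechanical and temperature sensing. In mutant GFP+ cells trpa-1 read 9.40, 9.70 and 9.54, against 7.78, 7.53 and 6.86 in wild-type GFP+ cells (log2 signal). All mutant arrays lay above all wild-type arrays, and wild-type replicate 3 was the lowest of the 6. The log2 difference was 2.16 ± 0.214 (SE), or 4.46-fold (limma adjusted p = 0.0310). Without wild-type replicate 3 it was 1.89 ± 0.147, or 3.71-fold (limma adjusted p = 0.00764).

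The rise of trpa-1 was not limited to reporter-positive cells. In mutant GFP- cells it read 7.79, 8.07 and 7.85, against 5.51 and 5.42 on wild-type GFP- replicates 1 and 2. That difference was 2.44 ± 0.240 log2 units (limma adjusted p = 0.0382). The strain difference in GFP+ cells minus that in GFP- cells was -0.28 ± 0.322 for trpa-1 with 11 arrays and -0.55 ± 0.208 with 10 (limma adjusted p = 1.00 for both). The left-out library read 7.09, and with it in the fit trpa-1 passed in neither fraction (limma adjusted p = 0.834 in GFP+ and 0.822 in GFP- cells). Where the probes lie relative to the change in the mutant gene was not analysed here.

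No gene around mir-124 other than its host was called. The 10 measured genes on each side, in the order of the WBcel235 annotation, had differences of -0.38 to 0.26 with 11 arrays and -0.27 to 0.49 with 10, with medians of -0.06 and -0.02, and 0 of the 20 passed limma. The mutant arrays lay wholly above the wild-type ones for 1 of the 20 and wholly below for 1, beside 2.85% and 3.91% of all genes. The nearest measured gene on one side, mob-1, read 8.47, 8.80 and 8.84 in mutant GFP+ cells, against 8.63, 8.67 and 9.95 in wild-type. Its groups overlapped, and its difference of -0.38 came with wild-type replicate 3, without which it was 0.05. On the other side the nearest measured gene, cutl-27, was the 1 that lay wholly below. Its difference was -0.16 with 11 arrays and -0.12 with 10, and it was not called. The other called genes, rgs-5, F39E9.7 and ergo-1, lie on chromosomes other than that of mir-124.

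Of the genes of G protein signalling, rgs-5 was called. RGS proteins speed up the GTPase of heterotrimeric G protein alpha subunits and so end their signal. In mutant GFP+ cells rgs-5 read 8.30, 8.20 and 7.49, against 5.84, 5.75 and 4.71 in wild-type GFP+ cells. All mutant arrays lay above all wild-type arrays, and wild-type replicate 3 was again the lowest. The difference was 2.56 ± 0.303, or 5.91-fold (limma adjusted p = 0.0479), and 2.20 ± 0.219 without wild-type replicate 3 (limma adjusted p = 0.0163). GFP- cells gave 8.06, 7.85 and 7.90 in the mutant, against 5.27 and 5.23 in wild-type. There the difference was 2.68 ± 0.338, missing the threshold with 11 arrays (limma adjusted p = 0.0568) and passing with 10 (0.00594). Between the fractions the strain difference of rgs-5 differed by -0.12 ± 0.454 with 11 arrays and -0.48 ± 0.310 with 10 (limma adjusted p = 1.00 for both).

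Among Argonautes, ergo-1 fell. ERGO-1 binds a class of endogenous small interfering RNAs made in embryos, which lead other Argonautes to repeated and recently duplicated genes. It read 4.44, 4.44 and 4.11 in mutant GFP+ cells, against 7.06, 6.40 and 6.19 in wild-type GFP+ cells, from a probe set with the suffix _s_at, which can bind transcripts of related genes. All mutant arrays lay below all wild-type arrays, and the mutant values lay at or little above the lower quartile of all probe sets on the same arrays (4.11 to 4.13), where signal limits how well a fall can be sized. The difference was -2.22 ± 0.230, or 4.64-fold lower (limma adjusted p = 0.0310), and -2.39 ± 0.227 without wild-type replicate 3 (limma adjusted p = 0.0163). Mutant GFP- cells read 4.41, 4.24 and 3.86, against 6.18 and 6.24 in wild-type GFP- cells, a difference of -2.04 ± 0.257. It missed the threshold with 11 arrays (limma adjusted p = 0.0568) and passed with 10 (0.0416). ergo-1 itself drops out where the dimmer 50% of probe sets are not tested.

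F39E9.7 is annotated as a pseudogene and was read by a probe set with the suffix _x_at, which can bind other transcripts as well. It read 7.42, 6.89 and 6.81 in mutant GFP+ cells, against 5.03, 4.60 and 4.91 in wild-type GFP+ cells. The groups were well apart, and here wild-type replicate 3 lay between the other wild-type arrays. The difference was 2.19 ± 0.252, or 4.56-fold (limma adjusted p = 0.0479), and 2.22 ± 0.287 without that array, where it did not pass (limma adjusted p = 0.0968). GFP- cells gave 8.14, 7.33 and 7.53 in the mutant and 5.53 and 5.01 in wild-type.

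One further gene had a large difference in both fractions without passing. E01G4.5 is known in C. elegans as a target of the endogenous small interfering RNAs that ERGO-1 binds. It read 8.23, 7.40 and 7.32 in mutant GFP+ cells, against 6.36, 5.60 and 5.45 in wild-type GFP+ cells, and its groups did not overlap. Its replicates spread more, with replicate 1 the highest and replicate 3 the lowest in both strains. The difference of 1.85 ± 0.399 did not pass (limma adjusted p = 1.00), nor did that of 1.67 without wild-type replicate 3. With the replicate number as a block it did not pass either (limma adjusted p = 0.128 with 11 arrays and 0.170 with 10). In GFP- cells it read 11.15, 10.06 and 11.05 in the mutant, against 8.45 and 7.47 in wild-type (difference 2.80 ± 0.446, limma adjusted p = 0.214). A link between its level and that of ergo-1 was not tested. A probe set with no annotated gene, singled out after its values were seen, read 6.14, 5.55 and 4.68 in mutant GFP+ cells, against 3.26, 3.08 and 3.38 in wild-type (difference 2.22 ± 0.399, limma adjusted p = 0.742). Its levels in GFP- cells were 7.84, 6.91 and 6.47 in the mutant and 3.56 and 3.18 in wild-type.

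**Figure D2:**
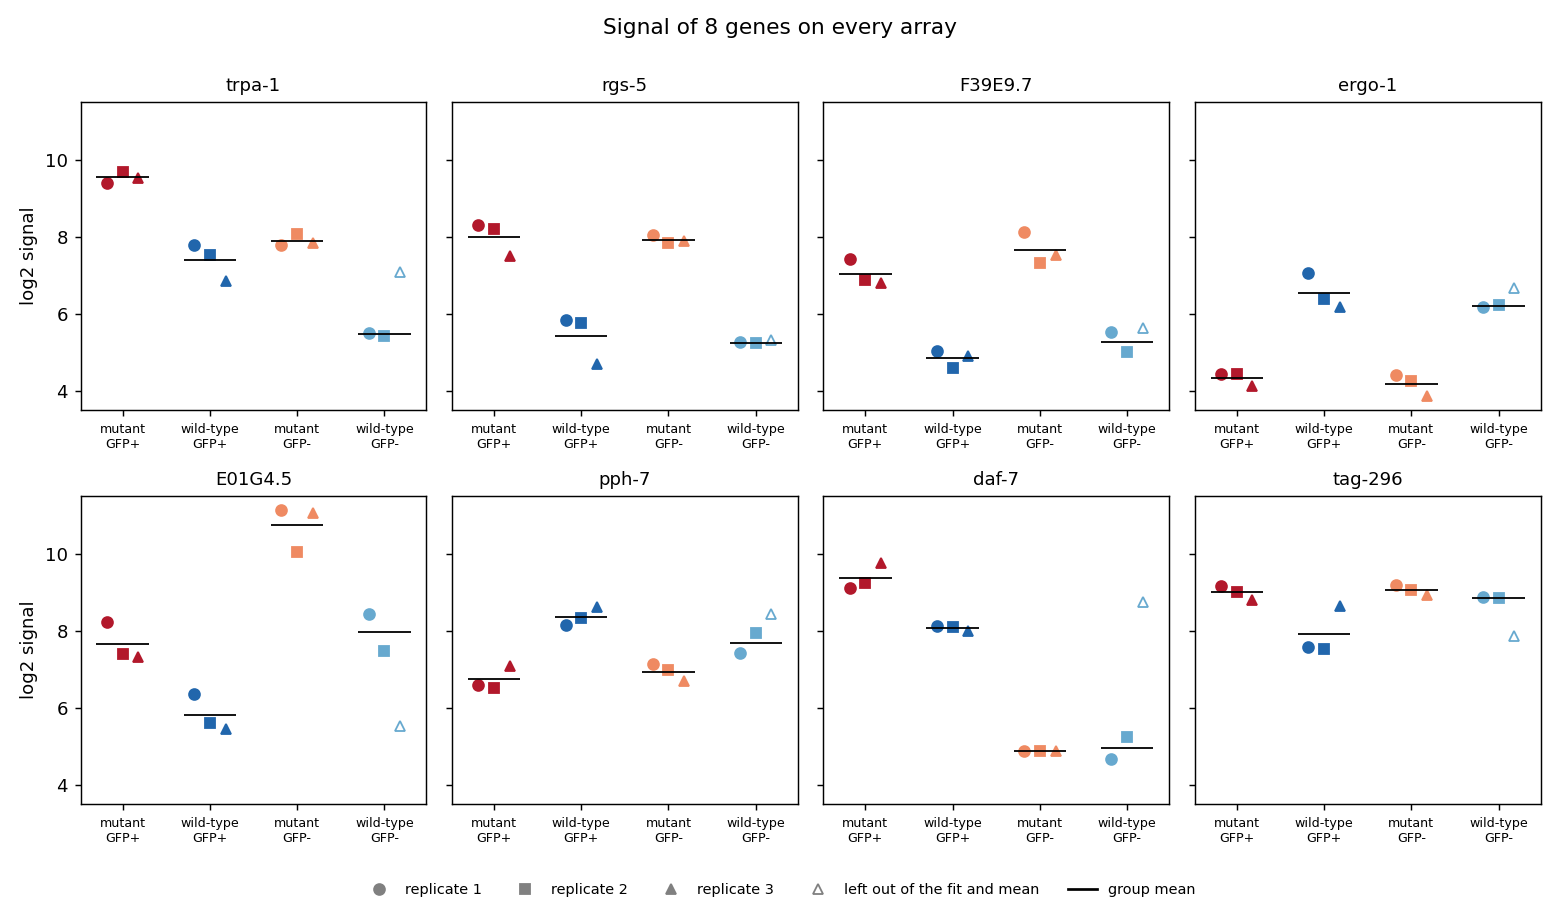
Log2 signal of 8 genes on every array, by group, with the mutant group left of its wild-type group in each fraction. Symbols give the replicate number, horizontal bars the group mean, and open triangles the array left out of the fit and the mean. The strains are separated in both fractions for trpa-1, rgs-5, F39E9.7, ergo-1 and E01G4.5, while the daf-7 arrays lie apart by strain in GFP+ cells, a difference that did not pass limma, and read near 5 in 5 of 6 GFP- arrays.

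Among genes whose strains did not overlap in either fraction, trpa-1, rgs-5, F39E9.7, E01G4.5 and ergo-1 were those with a difference over 1 log2 unit the same way in both. That limit was chosen after the values were seen. The first 4 were higher in the mutant in both fractions and ergo-1 was lower in both. Testing the strain difference of GFP+ cells against that of GFP- cells, 0 of 22548 probe sets passed limma with 11 or with 10 arrays, and 271 and 266 had an unadjusted p under 0.05 (1.2% and 1.18%). In GFP- cells 2 probe sets passed with 11 arrays (0.00887%), trpa-1 and one annotated to several genes, and 4 passed with 10 (0.0177%), these and rgs-5 and ergo-1. With the replicate number as a block, 8 probe sets passed in GFP- cells with 11 arrays and 10 with 10.

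**Figure D3:**
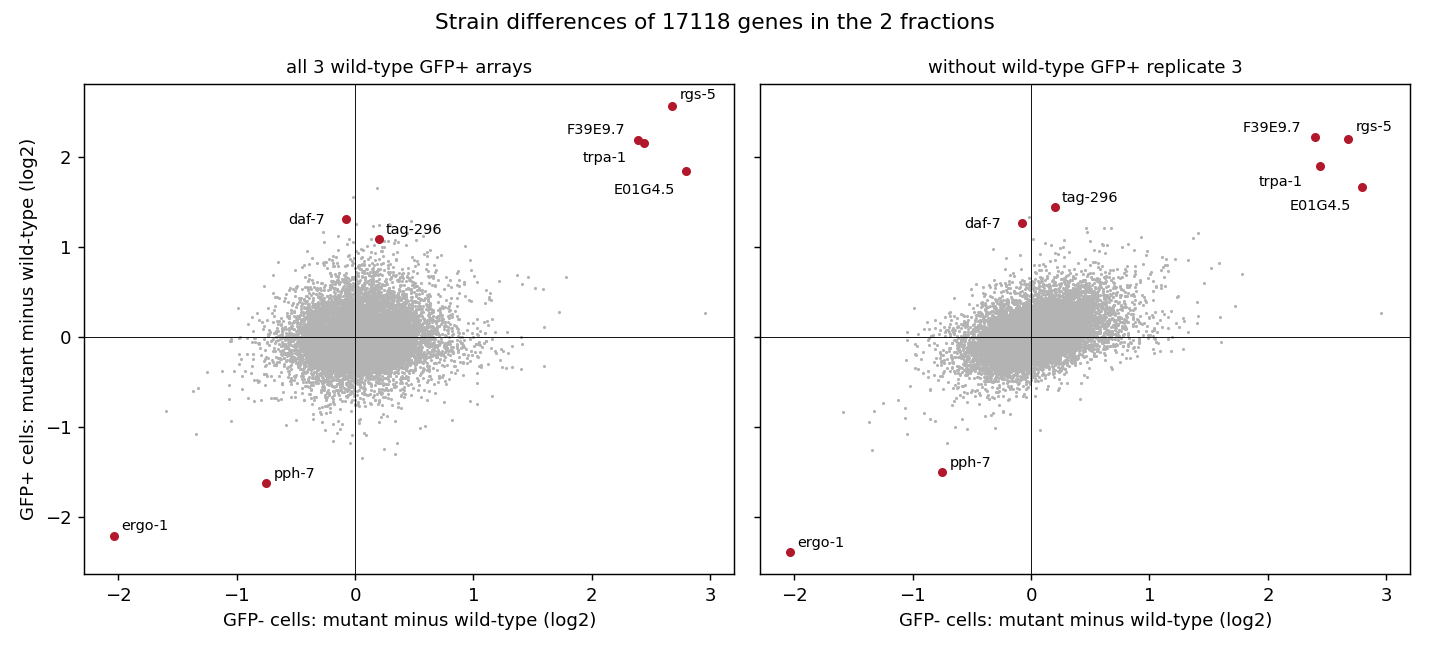
Mutant minus wild-type log2 difference in GFP+ cells (vertical axis) against that in GFP- cells (horizontal axis) for 17118 genes, with all 3 wild-type GFP+ arrays (left) and without replicate 3 (right). Each grey point is a gene, and the named genes are in red. The cloud is tilted without replicate 3 (r = 0.464) and nearly round with it (r = 0.147), while trpa-1, rgs-5, F39E9.7, E01G4.5 and ergo-1 lie far from it in both panels.

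Many other differences moved with wild-type GFP+ replicate 3. Across 17118 genes, which are not independent replicates, the differences with and without this array correlated at r = 0.469. Of 50 genes with a difference over 1 log2 unit in either direction with 11 arrays, 12 kept a difference over 1 without it. The median SD of a probe set was 0.154 among mutant GFP+ arrays and 0.241 among wild-type GFP+ arrays, against 0.122 for wild-type replicates 1 and 2. The strain differences in GFP+ and GFP- cells share no array, and correlated across genes at r = 0.147 with 11 arrays and 0.464 with 10. All mutant GFP+ arrays lay above all wild-type GFP+ arrays for 488 genes (2.85%) and below for 670 (3.91%). In 61.7% and 57.6% of these lists, wild-type replicate 3 was the wild-type array farthest from the mutant ones. The strains were apart the same way in both fractions for 80 genes above (0.467%) and 94 below (0.549%). The 80 made up 16.4% of the genes above in GFP+ cells, where 8.99% of all genes (1539) were above in GFP- cells, and 5.2% of those 1539. In GFP- cells 3 mutant arrays were set against 2 wild-type ones, which come apart more easily than 3 against 3. The shares of the 2 fractions are therefore not like for like. The 94 made up 14.03% of the genes below in GFP+ cells and 6.25% of the 1503 below in GFP- cells (8.78% of all genes). Opposite ways were rarer. Of the 488 genes above in GFP+ cells 25 were below in GFP- cells, where 8.78% of all 17118 genes were below. Of the 670 below in GFP+ cells 28 were above in GFP- cells, where 8.99% of all genes were above.

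The TGF-beta gene daf-7 was higher on all mutant GFP+ arrays but did not pass. daf-7 encodes a TGF-beta ligand that ciliated sensory neurons release to control entry into the dauer stage. It read 9.11, 9.25 and 9.77 in mutant GFP+ cells, against 8.12, 8.09 and 7.99 in wild-type GFP+ cells. The lowest mutant array was 0.98 log2 units above the highest wild-type array. The difference was 1.31 ± 0.194, or 2.48-fold (limma adjusted p = 0.185), and 1.27 without wild-type replicate 3 (limma adjusted p = 0.406). Among the 12 alternative settings other than leave-one-outs, daf-7 passed in 1 (limma adjusted p = 0.0473). In GFP- cells daf-7 read 4.88 on each mutant array and 4.67 and 5.25 in wild-type. These values lay between the lower quartile (4.06 to 4.22) and the median (5.44 to 5.51) of all probe sets on those arrays. The difference between the fractions, 1.39 ± 0.291, had an unadjusted limma p of 0.000817 and did not pass after adjustment (1.00).

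The list of sensory transduction genes had 60 measured members, of which trpa-1 was the only one called. Their median difference was 0.09 with 11 arrays and 0.07 with 10, against -0.03 and 0.01 for all genes. In 4 members (6.67%) all mutant arrays lay above all wild-type arrays, and in 1 (1.67%) below, beside 2.85% and 3.91% of all genes. daf-11, a receptor guanylyl cyclase, read 8.70, 8.79 and 9.01 in mutant GFP+ cells, against 8.56, 8.54 and 8.13 in wild-type. Its groups did not overlap, but the difference of 0.43 ± 0.162, or 0.29 with 10 arrays, did not pass (limma adjusted p = 1.00 for both). che-1, a transcription factor of the ASE taste neurons, had a difference of -0.50 with 11 arrays and -0.14 with 10, and its groups overlapped.

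Heterotrimeric G proteins and their regulators numbered 42, with a median difference of 0.05 (0.08 with 10 arrays). rgs-5 alone passed. In this list 5 members (11.9%) lay wholly above and 2 (4.76%) wholly below, beside 2.85% and 3.91% of all genes. odr-3, a G alpha subunit of olfactory cilia, read 7.78, 7.66 and 7.53 in mutant GFP+ cells, against 7.36, 7.01 and 7.07 in wild-type (difference 0.51 ± 0.151, or 0.47 with 10 arrays, limma adjusted p = 1.00). gpa-3, another G alpha subunit of sensory neurons, read 5.85, 6.32 and 5.89 in mutant GFP+ cells, against 5.75, 5.46 and 4.45 in wild-type. Its difference was 0.80 with wild-type replicate 3 and 0.42 without it. No other RGS gene was called.

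The small RNA list had 48 measured members, with a median of 0.08 (0.09 with 10 arrays). One member, ergo-1, passed. Those wholly above numbered 7 (14.6%) and those wholly below 4 (8.33%), beside 2.85% and 3.91% of all genes. prg-1, the Argonaute of the Piwi class, read 7.47, 7.47 and 7.45 in mutant GFP+ cells, against 6.91, 6.77 and 6.66 in wild-type. These replicates were close and the groups apart. The difference was 0.68 ± 0.213 and did not pass (limma adjusted p = 1.00), and it was 0.62 with 10 arrays. Its SE also draws on the GFP- arrays, where prg-1 had an SD of 0.420 in the mutant and 0.387 in wild-type replicates 1 and 2. sago-1, an Argonaute of secondary small RNAs, read 9.73, 9.18 and 9.94 against 9.15, 8.99 and 9.07 in wild-type GFP+ cells (difference 0.55 ± 0.213, or 0.54 with 10 arrays, limma adjusted p = 1.00). rde-4, a double-stranded RNA binding partner of Dicer, read 9.80, 9.67 and 9.47 in mutant GFP+ cells and 10.09, 9.92 and 10.70 in wild-type. Its difference was -0.59 ± 0.192, or -0.36 without wild-type replicate 3, and neither passed.

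Genes of the cilium were at high levels in both strains. Of 58 measured, 0 passed, 3 lay wholly above (5.17%, beside 2.85% of all genes) and 0 wholly below (beside 3.91%), and the median difference was 0.01 with 11 arrays. Without wild-type replicate 3 the median was 0.24, and 49 of 58 differences were above 0, against 9120 of all 17118. Their mean signal was 8.63, 8.39 and 8.58 on the mutant arrays and 8.49, 8.13 and 8.79 on the wild-type arrays, so the wild-type values spanned the mutant range. dyf-2, of the intraflagellar transport machinery, read 7.83, 7.96 and 8.11 in mutant GFP+ cells, against 7.83, 7.49 and 6.15 in wild-type. With wild-type replicate 3 its difference was 0.81 ± 0.400, and without it 0.31. The 14 ciliated markers themselves differed between the strains by -0.00 in mean signal with all GFP+ arrays and by 0.24 without that array, and their part in the difference was not tested.

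Ribosomal protein genes depended on the same array. Their mean signal over 64 genes was 12.56, 12.21 and 12.04 in mutant GFP+ cells, against 11.88, 11.75 and 12.83 in wild-type GFP+ cells. Wild-type replicate 3 was the highest of the 6 and the other wild-type arrays the lowest. The median difference was 0.10 with 11 arrays, with 53 of 64 above 0. It was 0.44 with 10 arrays, with 64 of 64 above 0 and 32 higher at an unadjusted p under 0.05, as were 2.34% of all genes (401). GFP- cells had a median of 0.46, with means of 13.09, 12.71 and 13.10 in the mutant and 12.54 and 12.43 in wild-type. After adjustment 0 of the 64 passed in GFP+ cells. rpl-23, read by a probe set with the suffix _s_at, had a difference of 0.73 ± 0.225 (0.97 with 10 arrays, limma adjusted p = 0.679).

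**Figure D4:**
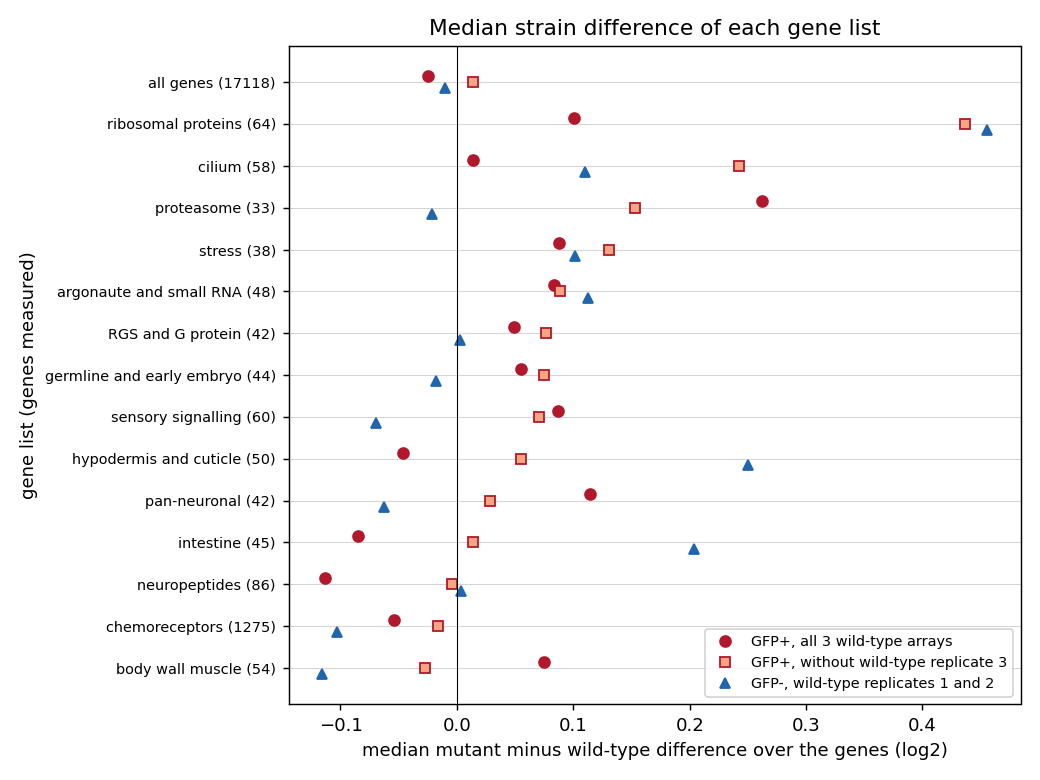
Median mutant minus wild-type log2 difference of all genes and of 14 gene lists, in GFP+ cells with all 3 wild-type arrays (filled circles) and without replicate 3 (squares), and in GFP- cells (triangles). The ribosomal protein median is 0.10, 0.44 and 0.46 in these 3 settings, against -0.03, 0.01 and -0.01 for all genes, and the other medians lie between -0.12 and 0.26.

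Proteasome subunits, 33 in number, had a median of 0.26 with 11 arrays and 0.15 with 10, with 28 and 27 differences above 0, as had 7500 and 9120 of all 17118 genes. Of the 33, 0 passed limma, and 3 lay wholly above (9.09%, beside 2.85% of all genes). rpt-2, an ATPase of the regulatory particle, read 10.24, 10.14 and 10.09 in mutant GFP+ cells, against 9.79, 9.90 and 9.85 in wild-type, a difference of 0.31 ± 0.122 with 11 arrays and 0.31 with 10. In 38 heat shock and detoxification genes 0 passed, beside 3 higher and 1 lower among all 17118 genes. The median was 0.09 (0.13 with 10 arrays). Of the 38, 3 lay wholly above (7.89%) and 3 wholly below (7.89%), beside 2.85% and 3.91% of all genes. The chaperone hsp-1 read 11.86, 11.45 and 11.08 in mutant GFP+ cells, against 11.19, 10.67 and 9.88 in wild-type, and its groups overlapped. Its difference was 0.89 with 11 arrays and 0.54 with 10.

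General neuronal and peptide genes gave no call. The 42 pan-neuronal genes had a median of 0.11 with 11 arrays and 0.03 with 10. unc-13, a synaptic vesicle priming factor read by an _x_at probe set, read 9.56, 9.53 and 9.48 in mutant GFP+ cells, against 9.22, 9.16 and 9.03 in wild-type (difference 0.38 ± 0.125, or 0.33 with 10 arrays, limma adjusted p = 1.00). The 86 neuropeptide genes had a median of -0.11 with 11 arrays and -0.00 with 10. flp-3, of the FMRFamide-like peptides, read 6.23, 6.35 and 6.32 in mutant GFP+ cells and 6.82, 6.62 and 8.67 in wild-type. Its difference of -1.07 shrank to -0.42 without wild-type replicate 3.

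Chemoreceptors, the large families of G protein-coupled receptors of worm sensory neurons, had 1275 measured genes and 0 calls. Their median difference was -0.05 with 11 arrays and -0.02 with 10. In 25 members (1.96%) the mutant arrays lay wholly above, and in 80 (6.27%) wholly below, beside 2.85% and 3.91% of all genes. The list averaged 4.34, 4.37 and 4.43 on the mutant GFP+ arrays and 4.33, 4.47 and 4.52 on the wild-type ones. These means were little above the lower quartile of all probe sets, 4.11 to 4.13 on mutant and 4.07 to 4.22 on wild-type GFP+ arrays. Whether such dim signals reflect receptor transcripts was not tested. sri-70 read 6.70, 7.04 and 7.31 in mutant GFP+ cells, against 6.40, 6.22 and 6.16 in wild-type, with little change without wild-type replicate 3 (difference 0.75 ± 0.157 and 0.71, limma adjusted p = 1.00). srh-72 read 5.66, 5.81 and 5.72 in mutant GFP+ cells, against 6.77, 6.07 and 7.83 in wild-type, and its difference of -1.16 was -0.69 with 10 arrays.

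Markers of other cell types differed in how far they were lower in GFP+ cells. Body wall muscle markers averaged 6.27 to 6.80 in mutant GFP+ cells and 6.53 to 7.03 in wild-type GFP+ cells, against 9.06 to 9.91 on 5 GFP- arrays. Intestinal markers averaged 4.83 to 5.30 in mutant and 5.08 to 6.06 in wild-type GFP+ cells, wild-type replicate 3 being the highest. On the same 5 GFP- arrays they averaged 7.33 to 7.99. Hypodermal markers averaged 6.01 to 7.02 in mutant and 6.19 to 7.26 in wild-type GFP+ cells, against 8.19 to 10.41 on 5 GFP- arrays. Pharyngeal markers averaged 8.16 to 8.62 in mutant and 7.93 to 8.79 in wild-type GFP+ cells, against 8.96 to 9.41 on 5 GFP- arrays. Glial markers averaged 5.77 to 6.49 over the 6 GFP+ arrays, and overlapped the 6.06 to 6.47 of those GFP- arrays. The strain gaps of the muscle, intestinal and hypodermal lists were -0.15, -0.43 and 0.01 with all GFP+ arrays and -0.02, -0.13 and 0.34 without wild-type replicate 3, and their part in the gene differences was not tested. Of 54 muscle, 45 intestinal, 50 hypodermal and 44 germline genes, 0 passed, beside 3 higher and 1 lower among all 17118 genes. Wholly above lay 3 muscle (5.56%), 2 intestinal (4.44%), 4 hypodermal (8%) and 2 germline genes (4.55%), beside 2.85% of all genes. Wholly below lay 3 muscle (5.56%), 2 intestinal (4.44%), 0 hypodermal and 0 germline genes, beside 3.91%.

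Among other genes that did not overlap and had a mean of at least 6 log2 units in the higher group, 12 with the largest positive and 12 with the largest negative differences were taken by rule. Apart from the genes already described, the positive ones were endu-2, F26H9.5, Y71F9AL.9, gfat-1, tcc-1 and sto-1, with differences of 1.07 to 1.29, none of which passed. Without wild-type replicate 3 the differences were 1.16 for endu-2, 1.08 for F26H9.5, 0.85 for Y71F9AL.9 and 0.58 for sto-1. gfat-1, of hexosamine synthesis, read 8.21, 7.81 and 8.34 in mutant GFP+ cells, against 7.17, 6.66 and 6.80 in wild-type (difference 1.24 ± 0.291, limma adjusted p = 1.00; 1.20 with 10 arrays). F26H9.5, annotated to serine synthesis and read by an _s_at probe set, read 9.92, 10.78 and 9.71 in mutant GFP+ cells, against 9.16, 8.95 and 8.56 in wild-type. Its difference was 1.25 in GFP+ cells and 0.01 in GFP- cells, and the difference between fractions did not pass (limma adjusted p = 1.00). tcc-1 read 7.88, 7.88 and 8.26 in mutant GFP+ cells, and wild-type replicates 1 and 2 at 7.52 and 7.76 lay just below. Wild-type replicate 3 was over 1 log2 unit lower, and the difference of 1.11 was 0.36 without it.

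The gene tag-296 was called with 10 arrays and not with 11. It read 9.17, 9.02 and 8.80 in mutant GFP+ cells, against 7.59, 7.54 and 8.63 in wild-type GFP+ cells. Wild-type replicates 1 and 2 were apart from the mutant arrays, and replicate 3 was just below them. It came to 1.44 ± 0.141 with 10 arrays (limma adjusted p = 0.0163), and to 1.08 ± 0.262 with 11 (1.00). With all 11 arrays weighted by array it passed as well (1.44, limma adjusted p = 0.00412). In GFP- cells the mutant read 9.20, 9.05 and 8.94 and wild-type 8.87 and 8.86, so wild-type GFP+ replicates 1 and 2 were the lowest of the 10 arrays. The difference between fractions was 1.24 ± 0.199 there, at an unadjusted limma p of 0.000142, and did not pass after adjustment (1.00).

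Of the 12 genes with the largest negative differences, ergo-1 alone passed with 11 or with 10 arrays. pph-7, of a protein phosphatase class, read 6.60, 6.52 and 7.09 in mutant GFP+ cells, against 8.16, 8.34 and 8.62 in wild-type GFP+ cells. The groups did not overlap, and the difference was -1.63 ± 0.215 (limma adjusted p = 0.0979), or -1.51 with 10 arrays (0.241). Among the 12 alternative settings other than leave-one-outs, pph-7 passed in 1 (limma adjusted p = 0.00551). In GFP- cells it was -0.75 ± 0.240. The others, nssp-7, srh-72, flp-3, nnt-1, srsx-6, F20B6.4, lgc-12, C05D10.4, ccg-1 and C54G7.1, had differences of -1.34 to -0.70 with 11 arrays. Without wild-type replicate 3 most were nearer 0, at -0.49 for nssp-7, -0.57 for nnt-1, -0.38 for F20B6.4, -0.46 for C05D10.4, -0.42 for ccg-1 and -0.31 for C54G7.1, while srsx-6 was at -0.84. nnt-1, the mitochondrial transhydrogenase, read 4.89, 5.50 and 5.55 in mutant GFP+ cells, against 5.70, 6.06 and 6.77 in wild-type. lgc-12, of the ligand-gated ion channels, read 6.25, 6.26 and 6.05 against 6.83, 7.22 and 6.85, and kept its difference without wild-type replicate 3 (-0.77 and -0.83).

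The transgene marker genes were not called. lin-15A, carried by the rescue plasmid in both strains, read 11.51, 11.10 and 11.01 in mutant GFP+ cells, against 11.34, 10.76 and 11.41 in wild-type (difference 0.04 ± 0.221, or 0.16 with 10 arrays). lin-15B, read by an _s_at probe set, had 10.19, 9.96 and 10.16 in mutant GFP+ cells, against 10.31, 9.60 and 9.18 in wild-type (difference 0.41 ± 0.331, or 0.15 with 10 arrays). The strains overlapped for both genes, and neither difference passed limma (adjusted p = 1.00).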

How the data were processed

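The 12 arrays measured RNA of sorted cells in 4 groups of 3. The authors deposited log2 expression values for every probe set. Per the submitters' processing notes, the tools were affy, limma, MAS5 and RMA. No version or role is stated, so which made the table is not settled here. Array medians lay between 5.40 and 5.51, and no scaling was applied; a shift common to all transcripts could not be seen. Of 22625 probe sets, 77 controls were set aside and 22548 tested; 20766 had a single gene in the platform annotation, 887 several and 895 none. Each of 17118 genes was represented by the brightest (mean over all arrays) of its probe sets with no other gene. Gene order and chromosomes came from RefSeq's WBcel235 annotation, and no sequence was used; a planned description of miR-124 seed matches in 3′ UTRs is not analysed here.

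Tests used limma 3.58.1 in R 4.3.3 fitting 4 group means, eBayes, 2-sided p-values and Benjamini-Hochberg adjustment over all probe sets (threshold 0.05). The fit rests on 11 arrays, without the library labelled wild-type GFP- replicate 3. Gene lists are given by counts and medians, without a list test. With 3 genes called higher and 1 lower among all 17118, a list with 0 calls says little about its genes. Genes were named by rule: those past the threshold, the 12 largest each way among genes that do not overlap, up to 3 list members each way, trpa-1, its measured neighbour and the lin-15 genes. The members, lists, tests and the 11-array fit were chosen with earlier results of these data known. The probe sets without a single gene, the genes around mir-124 and the limit of 1 log2 unit in both fractions were chosen after the values were seen. The labels state no pairing of arrays, and the SEs and p-values given are from the fit without a block unless stated. Same-numbered mutant and wild-type GFP+ arrays deviated together from their group means (r = 0.278, 0.185 and 0.229), and arrays of different number were not compared in this way. A fit with the replicate number as a block was therefore an alternative. The others were 12 arrays, GFP+ arrays alone, quantile normalization, a median shift, array weights, filters on the dimmest 25% and 50% of probe sets, trended and robust eBayes, and leaving out each array. The fitting code was tested on simulated data. Figures used matplotlib 3.10.9.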

Additional observations from a re-analysis of the deposited data

Results flagged for a closer look

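The library labelled wild-type GFP- replicate 3, which is outside the 11-array and 10-array fits and enters the 12-array alternative alone, carried neuronal signal. Its mean over 14 ciliated sensory neuron markers was 8.50 log2 units, against 4.82 to 5.07 on the other GFP- arrays, and its mean over 6 pan-neuronal markers was 9.59, against 8.10 to 8.48. It was singled out because both means lay above those of all other GFP- arrays. Its signal was 7.09 for trpa-1, 5.31 for rgs-5, 5.64 for F39E9.7 and 6.67 for ergo-1. Wild-type GFP+ replicate 3 read 6.86, 4.71, 4.91 and 6.19 for the same genes.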

How the results depend on the processing

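The count of 4 probe sets in GFP+ cells moved with the settings. It was 3 with 12 arrays, 5 without wild-type GFP+ replicate 3, 4 with the replicate number as a block (the same 4 genes), 6 with that block in 10 arrays, 2 after a shift of array medians and 12 with array weights. It was 0 with the 6 GFP+ arrays alone, with 5 of them, and with the replicate block in the 6, as were the 3 list members called. Leaving out 1 array gave 0 to 5 calls from 11 arrays and 0 to 3 from 10, and 0 to 3 list members. In GFP- cells the 2 calls became 4 without wild-type GFP+ replicate 3, 5 with 12 arrays or quantile normalization, 6 with the dimmest 25% left out, 7 with trended and robust eBayes, 8 with array weights or the replicate block, 10 with the block in 10 arrays, and 0 to 4 on leaving out 1 array. The interaction had 0 calls, apart from 1 without mutant GFP- replicate 2 (0 to 1 in all). The block changed no GFP+ call with 11 arrays. With it the limma adjusted p was 0.0287 for trpa-1, 0.0115 for rgs-5, 0.0055 for F39E9.7 and 0.0068 for ergo-1. Of 783 values for 28 genes, 693 kept their side of the threshold and direction. Another 69 lost a call, 8 gained 1, and 13 changed sign, all uncalled. Only trpa-1, rgs-5, F39E9.7 and ergo-1 were called with 11 arrays, so all 69 losses were theirs. For the other genes, keeping a side mostly meant staying uncalled. In the settings other than leave-one-outs, trpa-1 passed in 8 of 12, rgs-5 in 7 of 12, F39E9.7 in 8 of 12 and ergo-1 in 8 of 11. For mob-1 the difference was 0.0532 without wild-type GFP+ replicate 3 and in the 5 GFP+ arrays alone, and 0.0379 with the replicate block in 10 arrays. From 10 arrays, mob-1 was at 0.168, 0.0322, 0.00615 and 0.0742 without mutant replicate 1, wild-type replicate 1, mutant replicate 2 and wild-type replicate 2 of the GFP+ cells. From 11 arrays, leaving out 1 array gave -0.607 to 0.0532 for mob-1 and -0.168 to 0.158 for lin-15A. lin-15A was at -0.0686 with quantile normalization and -0.131 from 10 arrays without wild-type GFP+ replicate 2, where lin-15B was at -0.209. lin-15B was at -0.0191 with the replicate block in 10 arrays. The cause was not tested. A lone array left in an arm was taken to spread as the other groups do. The 10-array block, the leave-one-outs from 10 arrays and those of GFP- arrays were chosen after seeing the data.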

Other observations

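Y46G5A.43, singled out after its values were seen, had close replicates in both fractions. It read 6.20, 6.18 and 6.13 in mutant GFP+ cells, against 5.32, 5.22 and 5.43 in wild-type GFP+ cells, and 6.54, 6.49 and 6.76 in mutant GFP- cells, against 5.62 and 5.64 in wild-type. The differences were 0.85 ± 0.115 and 0.97 ± 0.129 log2 units, and neither passed limma (adjusted p = 0.105 and 0.0660).

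Of 17118 genes, mutant GFP+ arrays lay above every array of the other groups in the fit for 162 and below for 175. Without wild-type GFP+ replicate 3 these counts were 492 and 291. Wild-type GFP+ arrays lay above all others for 164 of the 17118 genes and below for 141, or 496 and 813 without that replicate. Fewer arrays meet this limit more easily, so the counts with and without that replicate are not like for like. The ribosomal protein gene rps-19, also singled out after its values were seen, was among those 813. It read 12.29, 11.86 and 11.78 in mutant GFP+ cells, against 11.02 and 11.07 on wild-type GFP+ replicates 1 and 2 and 13.07 on replicate 3.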
